A study of Drosophila melanogaster with 36 samples.

Results

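The light phase was compared with the dark phase in heads of Drosophila melanogaster kept at 25°C. The members were chosen by temperature and time point: the light columns of the deposited table at ZT3, ZT7 and ZT11 (hours after lights on) and its dark columns at ZT15, ZT19 and ZT23, which make 6 of 18 columns and stand for 12 of 36 labelled libraries. The flies were of the wild-type strain Canton-S and carried no transgene or mutation named in the labels. They were entrained to cycles of 12 h of light and 12 h of dark at 25°C before collection, and the other columns came from flies kept in the same way at 18°C or 29°C. Messenger RNA was read from its polyadenylated 3′ ends (3′ RNA-seq). The labels give ZT18 where the table gives ZT19, and the table's name is used here. Each time point has 1 column, although the labels describe 2 libraries for each, so no time point has a replicate and the 3 time points of a phase served as its units. The spread against which a difference was tested therefore holds the change over the day within a phase, and it is not known whether the libraries came from separate cultures.

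The fly clock is a loop in which the activators CLK and CYC switch on per, tim, vri, Pdp1 and cwo, whose products then feed back on them. Light acts on this loop through CRY, a blue light photoreceptor that leads to the loss of TIM protein, with JET as its partner. Light also acts on head RNA outside the clock, through the compound eye, through the activity and sleep of the animal and through feeding. A gene whose RNA peaks near dusk or dawn can swing strongly over the day and still have like means in both phases.

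The light columns held 1241552, 1953917 and 1673685 reads on genes at ZT3, ZT7 and ZT11, and the dark columns held 2381033, 1398361 and 1673088 at ZT15, ZT19 and ZT23. A value is called a signal here: it is a number of reads scaled by the authors, and 1 read was worth between 0.679 and 1.27 signal units at 25°C. Photoreceptor markers were high in every column, with a summed signal of 29429 to 35343 in light and 33202 to 38510 in dark columns. Markers of glia (1987 to 2466 in light, 1982 to 2128 in dark) and of neurons (317 to 514 in light, 338 to 386 in dark) were present too.

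The ZT7 column stood apart. Its 28 midgut markers summed to 9006, against 174 and 182 in the other light columns and 130, 249 and 261 in the dark columns, and 3 of these genes had no read in any column at 25°C. Flight muscle markers summed to 8830, 13261 and 8260 in the light columns and to 8120, 8397 and 7801 in the dark columns. Mal-A1, a maltase of the gut, had 4.55, 292 and 12 in light and 19.7, 11.4 and 14.4 in dark. Eggshell markers did not exceed a sum of 3.39 in light and 8.14 in dark, and testis markers did not exceed 17.5 and 14.9. The counts over all genes are therefore given without ZT7 as well, as are many of the values for lists and single genes.

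**Figure D1:**
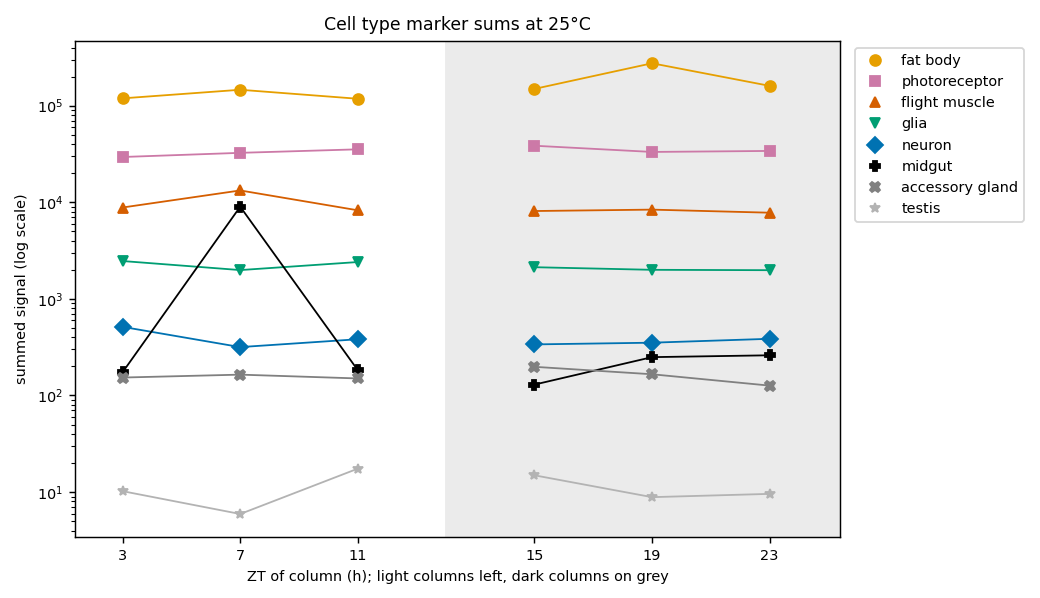
Summed signal of cell type marker lists (log axis) in each column at 25°C, with light columns on the left and dark columns on grey. The midgut sum of 9006 at ZT7 lies far above the other columns, and the fat body sum is highest at ZT19, at 274842.

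Across the transcriptome, no gene passed the test between light and dark. With limma on log2(signal + 1), 0 of 7892 genes had an adjusted p under 0.05 (0%), and 599 had an unadjusted p under 0.05 (7.59%), of which 269 were higher in light (3.41%) and 330 lower (4.18%). The edgeR test on the recovered reads called 0 genes as well, with 674 at an unadjusted p under 0.05, whereas DESeq2 called 7. Without ZT7, limma called 1 gene (0.0127%; 664 at an unadjusted p under 0.05, 8.41%), edgeR 0 (713 at that level) and DESeq2 17. In 472 genes (5.98%) all light columns lay above all dark columns, and in 527 (6.68%) they lay below, or 999 (12.7%) in all, against 10.8% at 18°C and 19.1% at 29°C. Without ZT7 the light columns lay above in 916 genes (11.6%) and below in 1084 (13.7%), and with columns scaled to their total reads all 3 light columns lay above in 705 (8.93%) and below in 289 (3.66%). An exact permutation test of a single gene cannot reach a p under 0.1 with 3 columns against 3. The median difference over all genes was -0.02 on the deposited scale, 0.10 when columns were scaled to their total reads and 0.00 with TMM scaling, and with total reads the split at an unadjusted p under 0.05 became 470 genes higher and 168 lower in light.

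The smallest p of all belonged to Obp99b (CG7592, chr3R:25541973-25542532 in dm3), which encodes a member of the odorant binding protein family. Its signal was 140, 211 and 164 in the light columns and 364, 518 and 384 in the dark columns. Every light column thus lay below every dark column, and the averages were 172 ± 36.2 in light and 422 ± 83.7 in dark (SD, n = 3 columns each). The log2 difference was -1.30 ± 0.23 (SE), with a limma adjusted p of 0.0517. Without ZT7 Obp99b fell in light by 1.46 on the log2 scale (limma adjusted p = 0.0428). This call was lost when the 29°C ZT19 column was left out as well (adjusted p = 0.0627), and over all alternatives with the 25°C columns the adjusted p lay between 0.00014 and 0.436.

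Most fat body markers were lower in light as well. Of the 11 fat body markers tested, 10 were lower in light, 5 of them at an unadjusted p under 0.05, against 4.18% of all genes, and 0 passed the adjusted threshold. Their median difference was -0.54, and -0.67 without ZT7, while the median of all genes was -0.02 in both cases. The marker that was higher in light had a log2 difference of 1.77, at a limma unadjusted p over 0.05. The list's sum was 119085, 146168 and 117924 in light and 149131, 274842 and 160398 in dark, with the highest value at ZT19, and without ZT19 the median difference was -0.35. Whether these transcripts had a part in the Obp99b result was not tested, and in whole heads fewer cells of a type cannot be told apart from less RNA per cell.

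Yp2 (yolk protein 2, made in the female fat body and ovary) had 44875, 51505 and 44133 in light and 58784, 107389 and 60158 in dark, so all light columns were below all dark ones (log2 difference -0.63, limma adjusted p = 0.397). Yp1, Yp2 and Yp3, which are made in females, summed to 112991, 140533.1 and 115362 in light and to 142936, 266221 and 153218 in dark. They thus made up most of the fat body marker sum in every column. The share of females in each column is not given in the labels. Lsp1beta, a storage protein, had 39.8, 109 and 27.6 in light and 170, 412 and 85.3 in dark, with ZT7 above ZT23 (log2 difference -1.85, limma adjusted p = 0.339, and 0.221 without ZT7). Lsp2, another storage protein, was at 4087, 3298 and 626 in light and 4001, 5272 and 5139 in dark, where ZT3 overlapped with ZT15. DESeq2 called Yp2 and Lsp1beta lower in light once ZT7 was left out.

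Among the other genes with the smallest p that lay below dark in every light column, none passed the limma test. CG14400 (chr2L:20856987-20857891) had 54.5, 49.2 and 55.3 in light and 103, 89.9 and 107 in dark, a log2 difference of -0.90 ± 0.19 (SE) with an adjusted p of 0.331. CG2124 (chrX:10490110-10493200) had the widest gap of these, with 7.95, 9.32 and 7.37 in light and 33.3, 46.9 and 27.8 in dark (-1.98 ± 0.45, adjusted p = 0.339). The light values of CG2124 rest on only 7, 11 and 8 reads. Both genes overlap a gene on the opposite strand at their 3′ end in the current annotation (twit and CG1628), and since the use of strand in counting is not stated, reads of either partner may be counted there.

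CG17108 was abundant, at 10645, 10486 and 8751 in light and 11732, 19464 and 18793 in dark (-0.71 ± 0.17). Obp56e, another odorant binding protein gene, had 2704, 2815 and 3208 in light and 4383, 4694 and 3377 in dark (-0.50 ± 0.13). The spread within each phase was small for the next pair, which like the others here were picked for columns that did not overlap. CG1354 had 189, 200 and 186 in light and 292, 268 and 267 in dark, and Jhbp3, named for juvenile hormone binding, had 420, 441 and 422 in light and 573, 631 and 582 in dark. CG17385 had 54.5, 44.9 and 56.2 in light and 82.8, 92.5 and 103 in dark. The limma adjusted p of these 5 genes was 0.339, and DESeq2 called CG1354, CG14400, CG17108, Jhbp3 and Obp56e, together with Obp99b, lower in light with all 6 columns.

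In the other direction, CG14186 (chr3L:20091181-20096907), a gene of the activity-regulated list, had the smallest p. Its signal was 60.2, 50.9 and 55.3 in the light columns and 24.4, 17.7 and 21.1 in the dark columns, so that the lowest light column was above the highest dark column (log2 difference 1.36 ± 0.31, SE, limma adjusted p = 0.339, and 0.232 without ZT7). Sidpn, which encodes a transcriptional repressor related to deadpan, had 57.9, 58.5 and 92.1 in light and 34.6, 22.8 and 34.5 in dark. The signal of TP53INP, of a family with roles in autophagy, was 245, 182 and 162 in light and 87.5, 139 and 115 in dark. For flap it was 184, 184 and 257 in light and 166, 110 and 109 in dark.

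A pair of the genes above dark in every light column have products at synapses, and neither passed the limma test. Rph, for rabphilin, a protein of synaptic vesicles, had 18.2, 19.5 and 19.3 in light and 7.47, 5.07 and 3.83 in dark (log2 difference 1.67 ± 0.45, limma adjusted p = 0.339), and it overlaps ras on the opposite strand at its 3′ end. The dark values of Rph rest on only 11, 4 and 4 reads. Sap47, for a synapse-associated protein, had 153, 107 and 132 in light and 51.6, 105 and 64.2 in dark, with ZT7 just above ZT19. CG42390 had 46.6, 55.1 and 70.9 in light and 36.6, 19 and 30.7 in dark. TpnC47D, a muscle troponin C, was highest at ZT7, where flight muscle markers were also highest, at 28.4, 83.9 and 30.4 in light and 12.2, 11.4 and 9.59 in dark. Its log2 difference was 1.83 with ZT7 and 1.34 without it. Without ZT7, DESeq2 called 5 genes higher in light, among them Sidpn (adjusted p = 0.0453), flap (0.0453) and Sap47 (0.0453), the other two being Gasp and nAChRbeta1.

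**Figure D2:**
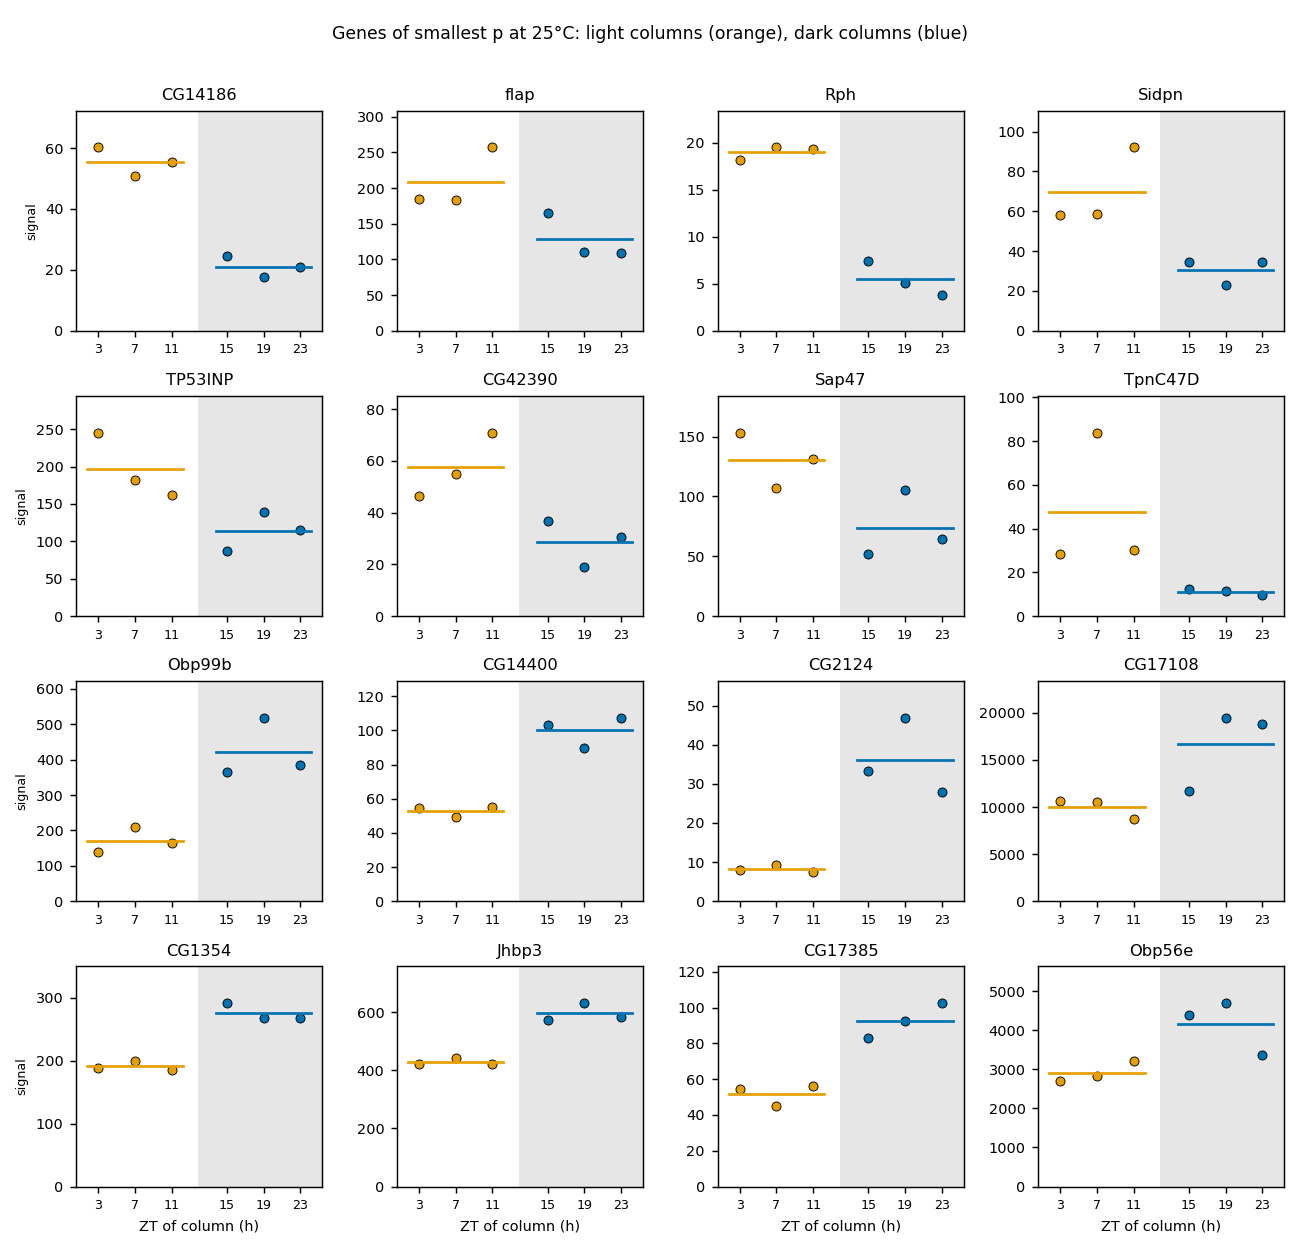
Signal at 25°C of the 8 genes of smallest p above dark and the 8 below dark in every light column (points, 1 per column; lines, means of 3 columns). Light columns (orange) are left of dark columns (blue); Obp99b has light values of 140 to 211 and dark values of 364 to 518.

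None of the 9 core clock genes passed the test between phases, with 5 higher and 4 lower in light and a median difference of 0.08. Without ZT7, 4 were higher and the median was -0.08. The RNA of tim, which encodes the light-sensitive partner of PER, was at 55.7, 59.3 and 175 in light and 223, 171 and 68.1 in dark. The means of both phases thus include its low and its high values, and the log2 difference was -0.72 ± 0.54 (SE; limma adjusted p = 0.818). The repressor gene vri was at 18.2, 72.9 and 154 in light and 129, 63.3 and 25.9 in dark, an excursion of over 8-fold with a log2 difference of -0.01. per had low signals of 10.2, 17.8 and 17.5 in light and 29.9, 8.87 and 2.88 in dark. Its 3′ end overlaps dyw on the opposite strand, so that reads of both may be mixed.

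The photoreceptor gene cry was the only 1 of the 9 clock genes whose columns did not overlap between phases, against 12.7% of all genes in either direction. It had 59.1, 85.6 and 67.2 in light and 38.7, 39.3 and 47.0 in dark, with a log2 difference of 0.74 ± 0.27 (SE; unadjusted p = 0.0103, limma adjusted p = 0.525), which was 0.59 without ZT7, its highest column (unadjusted p = 0.0586, limma adjusted p = 0.605), and its 3′ end overlaps vib on the opposite strand. Its partner jet had 26.1, 16.1 and 18.4 in light and 19.7, 35.5 and 19.2 in dark. Clk was at 29.5, 11 and 12.9 in light and 5.43, 24.1 and 22.0 in dark, and cyc, its partner, was at 21.6, 39.8 and 36.8 in light and 40.7, 38.0 and 17.3 in dark. Pdp1, the activator of the side loop, had 36.4, 47.5 and 52.5 in light and 55.7, 35.5 and 31.6 in dark. The repressor gene cwo varied least, between 22.1 and 29.5 in light and 24.0 and 32.9 in dark.

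**Figure D3:**
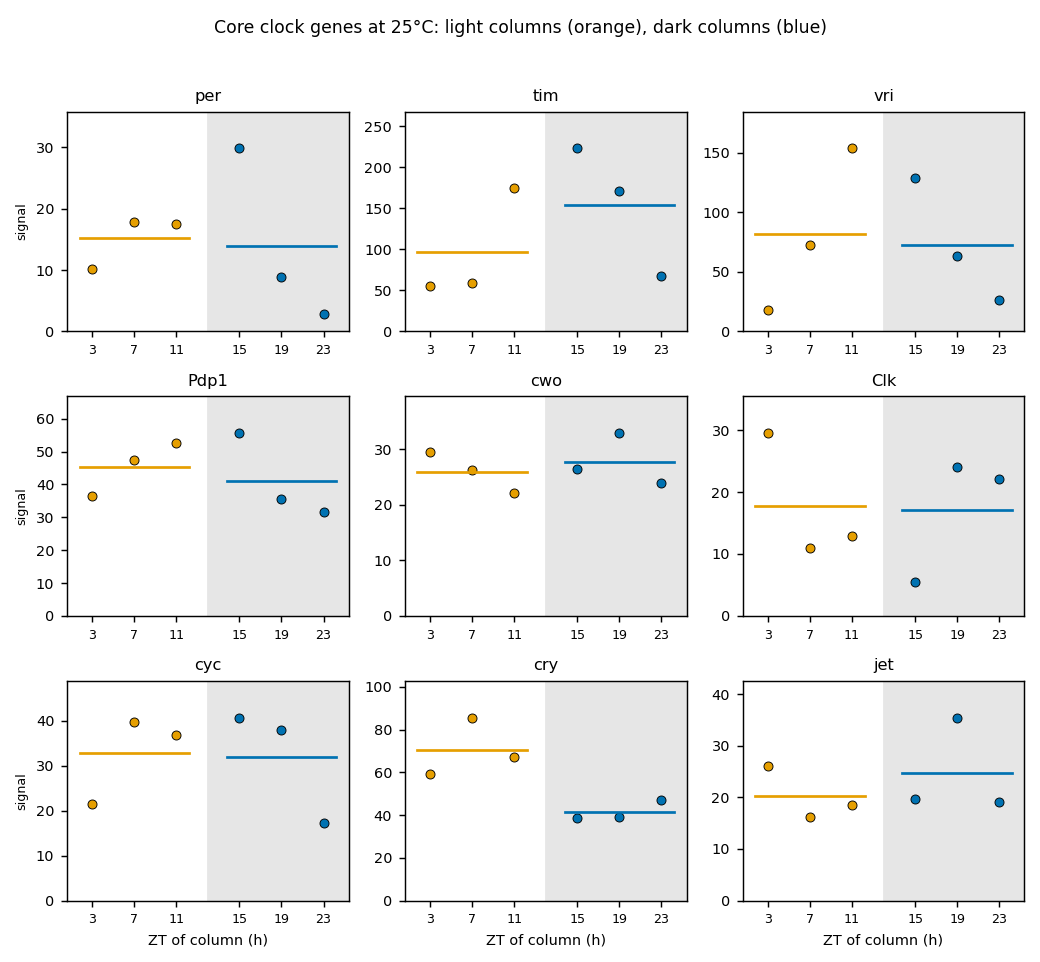
Signal of the 9 core clock genes at 25°C (points, 1 per column; lines, phase means), with light columns (orange) left of dark columns (blue). tim peaks at ZT15, at 223, and vri at ZT11, at 154, while cry is above 59 in light and below 48 in dark.

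No gene on the list of kinases and phosphatases that act on clock proteins was called. The list also holds slmb, for a ubiquitin ligase subunit. Of its 9 genes, 6 were higher in light, 2 of them at an unadjusted p under 0.05 against 3.41% of all genes. In 3 all light columns lay above all dark columns, against 5.98% of all genes. sgg, which encodes the kinase GSK3, had 60.2, 53.4 and 38.7 in light and 34.6, 15.2 and 33.6 in dark (limma adjusted p = 0.478). dco, for the PER kinase Doubletime, had 42.0, 55.9 and 48.8 in light and 38.7, 35.5 and 14.4 in dark (adjusted p = 0.542). The columns of both genes did not overlap, whereas those of nmo, the kinase Nemo, did (14.8, 10.2 and 17.5 in light, 2.04, 13.9 and 5.75 in dark). Among 10 clock output genes, Cyp4d21, a cytochrome P450, was at 37.5, 38.1 and 63.6 in light and 95.7, 120 and 80.5 in dark (log2 difference -1.10, limma adjusted p = 0.397). cu, the fly Nocturnin gene, had 30.7, 11.9 and 20.3 in light and 34.6, 29.1 and 45.1 in dark.

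Genes of the activity-regulated list, which in insect neurons respond to firing, were mostly higher in light. Of 12 tested, 11 had a positive difference, 3 had an unadjusted p under 0.05 and 4 had all light columns above all dark columns, against 3.41% and 5.98% of all genes. None was called, and the median difference was 0.37, or 0.35 without ZT7, when 12 had a positive difference and 1 an unadjusted p under 0.05. Hr38, a nuclear receptor gene, had 17.0, 19.5 and 11.1 in light and 5.43, 3.80 and 3.83 in dark (log2 difference 1.63 ± 0.66, limma adjusted p = 0.547), and it overlaps CG2617 on the opposite strand at its 3′ end. meng, which encodes a kinase, had 28.4, 31.4 and 12.9 in light and 11.5, 7.60 and 9.59 in dark. Among 9 sleep regulators, 7 were higher in light and 2 had an unadjusted p under 0.05, against 3.41% of all genes. Without ZT7 these counts were again 7 and 2, against 3.21% of all genes. At 18°C 1 of the 9 was higher in light, and at 29°C 6 were. The neuron marker sum was highest at ZT3, at 514, and its 8 genes had a median difference of 0.27, or 0.47 without ZT7. The part of these markers in the list's values was not tested.

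Most subunit genes of the proteasome, which degrades tagged proteins, had more signal in light. Of the 48 genes on the list, 33 were tested, of which 31 were higher in light, 10 at an unadjusted p under 0.05 (against 3.41% of all genes), and in 11 no light column overlapped a dark one (against 5.98%). None was called. With total read scaling 12 did not overlap, against 8.93%. Their median difference was 0.23, or 0.35 on total reads, and leaving out each column gave medians between 0.17 and 0.31. Without ZT7, 29 were higher and 4 had an unadjusted p under 0.05, against 3.21% of all genes. The summed signal was 4631, 4948 and 5083 in light and 4520, 3882 and 4079 in dark, so that no light column was below a dark one.

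Subunits of the regulatory particle led the list. Rpn1 had 109, 94.9 and 123 in light and 85.5, 51.9 and 68.1 in dark (log2 difference 0.68 ± 0.19, limma adjusted p = 0.343). Rpn9 had 182, 159 and 174 in light and 130, 103 and 99.7 in dark, with CG10365 on the opposite strand of its 3′ end. Rpn10 had 177, 174 and 213 in light and 134, 133 and 135 in dark. The other genes at an unadjusted p under 0.05 were Rpt3, Rpn7 and Rpn11 of the same particle and Prosalpha2, Prosalpha6, Prosbeta3 and Prosbeta6 of the core.

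Ribosomal protein genes lay on the other side. Of 84 tested, 76 were lower in light, but 0 had an unadjusted p under 0.05 and the median was -0.13. The summed signal was 310136, 425490 and 371852 in light and 408177, 404526 and 397278 in dark, so that ZT7 lay above every other column. Without ZT7, 65 of 84 had both light columns below all dark columns, against 13.7% of all genes, and 23 had an unadjusted p under 0.05, against 5.21%. With total read scaling 10 of 84 did not overlap in this direction, against 6.46%, and the median with all 6 columns was -0.02, which is 0.11 below that of all genes. Without ZT3 the median was -0.02 on the deposited scale. RpS14b, for a small subunit protein, had 2428, 3826 and 3713 in light and 3924, 4468 and 3866 in dark. Of 63 genes tested from a list of the respiratory chain, 34 were higher in light. The list was named for nuclear genes but also holds COX1, COX2 and COX3, which name subunits encoded in the mitochondrial genome. Its counts and medians may therefore not be of nuclear genes alone. In 1 gene the unadjusted p was under 0.05 (against 3.41% of all genes), ATPsynG of the ATP synthase. ATPsynG had 268, 266 and 216 in light and 187, 138 and 197 in dark. Without ZT7, 13 of the 63 genes were higher, 15 had both light columns below all dark columns, against 13.7% of all genes, and the median was -0.08, against 0.01 with all 6 columns.

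In the eye, no gene of the light-sensing pathway was called. All 7 rhodopsin genes had a negative difference, with a median of -0.15, which was -0.04 on total reads against 0.10 for all genes. The difference nearest zero was -0.005. Without ZT7, 1 of the 7 was higher in light and the median was -0.16. At 18°C 5 of the 7 were higher in light, and at 29°C 4 were. Rh5, for the blue-sensitive rhodopsin of R8 cells, had 143, 141 and 164 in light and 194, 234 and 250 in dark (log2 difference -0.59 ± 0.16, limma adjusted p = 0.339). It was the only 1 of the 7 rhodopsin genes with columns that did not overlap, against 12.7% of all genes in either direction. Without ZT7 its log2 difference was -0.55 (limma adjusted p = 0.418). Rh4 and Rh3, for ultraviolet-sensitive rhodopsins of R7 cells, overlapped between phases, Rh4 at 802, 664 and 622 in light and 726, 884 and 970 in dark, and Rh3 at 656, 624 and 751 in light and 676, 832 and 849 in dark.

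Of 20 phototransduction genes tested, 12 were higher and 8 lower in light, with 4 and 2 at an unadjusted p under 0.05, against 3.41% and 4.18% of all genes, and a median of 0.22. Without ZT7, 15 were higher and 5 lower, with 5 and 0 at that level, against 3.21% and 5.21%, and the median was again 0.22. Cam, for calmodulin, had 1845, 1364 and 1303 in light and 1113, 1087 and 1052 in dark (log2 difference 0.46 ± 0.14, limma adjusted p = 0.397). laza, for a lipid phosphatase of the eye, had 78.4, 81.4 and 77.4 in light and 31.2, 38.0 and 70.9 in dark. inaC, for the eye's protein kinase C, had 276, 339 and 363 in light and 199, 158 and 293 in dark, with ZT23 above ZT3. In the opposite direction, trp, for the light-gated channel, had 1609, 1452 and 1837 in light and 1867, 1952 and 1981 in dark (log2 difference -0.25, limma adjusted p = 0.603). In the retinoid cycle, which remakes the chromophore, Pdh had 3113, 2781 and 2498 in light and 2012, 1693 and 2559 in dark, and rdhB had 286, 164 and 252 in light and 268, 367 and 289 in dark. Of that list's 7 genes, 2 were higher in light.

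Other lists held genes that were highest at ZT7. Of 10 antimicrobial peptide genes, 9 were higher in light, with a median of 0.63, but without ZT7 the median was 0.00 and 5 were higher. AttA, an attacin, had 7.95, 23.7 and 8.29 in light and 2.04, 1.27 and 2.88 in dark, and AttB had 82.9, 146 and 47.9 in light and 46.8, 51.9 and 46.0 in dark. AttA was thus highest at ZT7 but was above every dark column at ZT3 and ZT11, at a limma adjusted p of 0.339, or 0.482 without ZT7. Of 27 cuticle protein genes, 21 were higher and 5 had an unadjusted p under 0.05, against 3.41% of all genes, and without ZT7 these counts were 20 and 1, against 3.21%. In 4 of them all light columns lay above all dark columns, and in 7 without ZT7, against 5.98% and 11.6% of all genes, and the median was 0.17, or 0.28 without ZT7. Cpr49Ae had 189, 732 and 152 in light and 124, 148 and 191 in dark. Cpr92F, with 20.5, 73.7 and 14.7 in light and 6.11, 11.4 and 12.5 in dark, did not overlap between phases. Of 16 flight muscle markers tested, 14 were higher, 4 at an unadjusted p under 0.05, against 3.41% of all genes. Without ZT7, 13 were higher and 0 were at that level, against 3.21% of all genes. With or without ZT7, 4 lay above every dark column, against 5.98% of all genes with it and 11.6% without it. The median was 0.14 with all 6 columns and 0.11 without ZT7. wupA, for troponin I, had 649, 683 and 554 in light and 478, 446 and 496 in dark. Acp65Aa, chosen after its values were seen as the only gene that DESeq2 called higher in light with all 6 columns, was at 9.09, 875 and 10.1 in light and 8.82, 11.4 and 10.5 in dark, and it was not among the DESeq2 calls without ZT7.

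Metabolic and stress genes were mixed. Of 84 detoxification enzymes, 41 were higher and 43 lower in light, with 2 and 7 at an unadjusted p under 0.05, against 3.41% and 4.18% of all genes. In 8 all light columns lay below all dark columns, and in 19 without ZT7, against 6.68% and 13.7% of all genes. Cyp4p1 had 88.6, 88.1 and 84.7 in light and 59.7, 50.7 and 54.6 in dark (limma adjusted p = 0.403), and Cyp4ac1 had 109, 111 and 108 in light and 139, 175 and 153 in dark (adjusted p = 0.525). Both are cytochrome P450 genes that overlap an opposite gene at their 3′ end (hig and tkv). Of 17 insulin and nutrient genes, 8 were higher in light. tobi, for a glucosidase controlled by insulin and glucagon-like signals, had 214, 236 and 83.8 in light and 232, 367 and 368 in dark (log2 difference -0.96, limma adjusted p = 0.397). Ilp2, an insulin-like peptide gene, had 167, 211 and 212 in light and 256, 246 and 231 in dark, but its 3′ end lies within CG32052 on the same strand.

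Of 14 heat shock genes, 5 were higher in light. stv, for a co-chaperone, had 107, 113 and 107 in light and 101, 60.8 and 72.9 in dark, while Hsp68 had 7.95, 8.48 and 0.921 in light and 10.2, 11.4 and 15.3 in dark. With all 6 columns the remaining lists had no member at an unadjusted p under 0.05 in either direction: 19 neuropeptide genes (8 higher, median -0.04), 13 of lipid synthesis (8 higher), 11 bomanins (7 higher, median 0.03, but 5 higher and a median of -0.04 without ZT7), 11 of folding in the endoplasmic reticulum (7 higher, median 0.02, but 3 higher and a median of -0.09 without ZT7) and 8 of dopamine synthesis and tanning (7 higher, median 0.06).

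**Figure D4:**
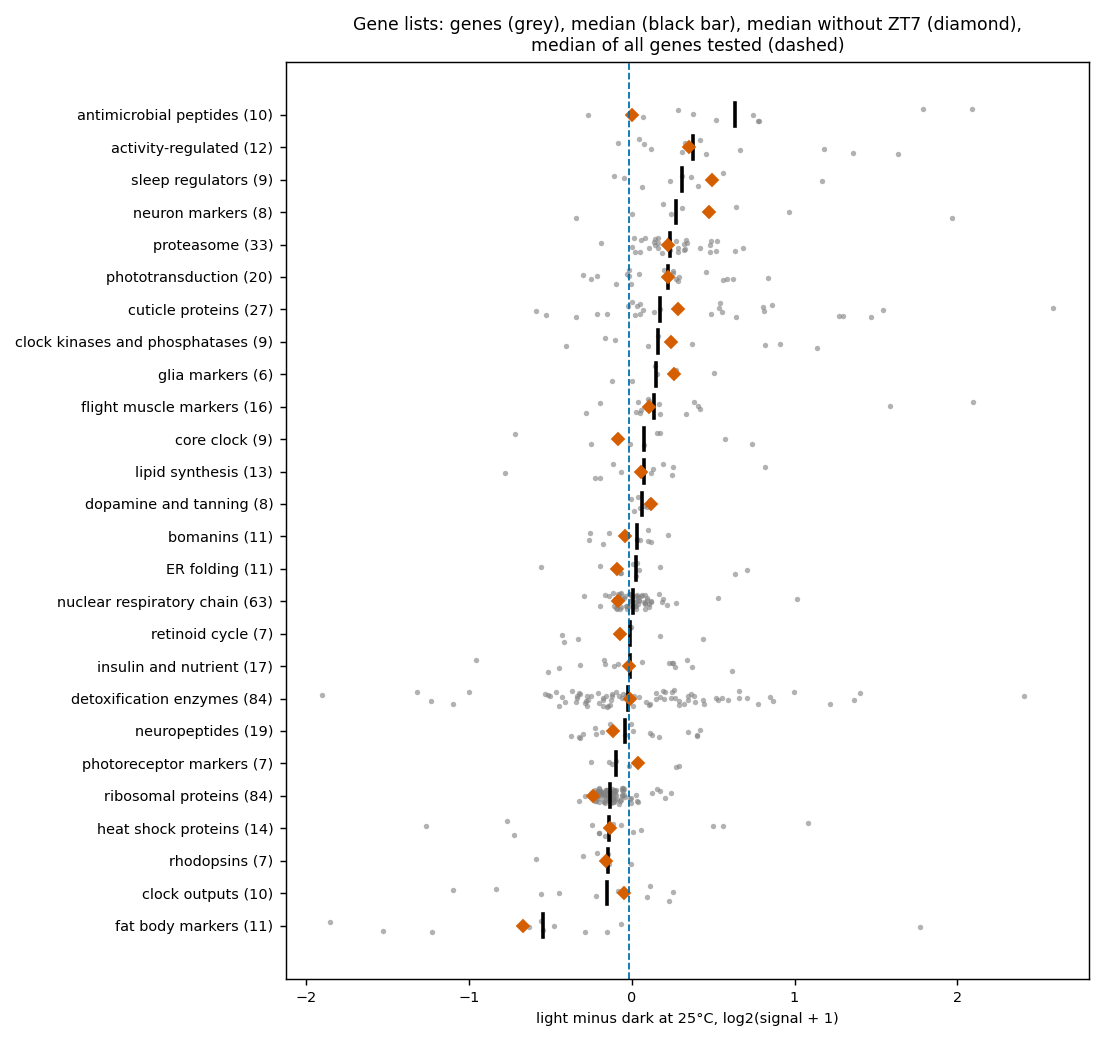
Log2 difference between light and dark at 25°C for each gene tested (grey points) by list, with the number tested in brackets. The median for antimicrobial peptides is 0.63 (black bar) and 0.00 without ZT7 (diamond); the dashed line is the median of all genes, -0.02.

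The difference between phases at 25°C was then set against that at 18°C and 29°C in the same fit. Against 18°C, 1 of 7892 genes was called (0.0127%; 508 at an unadjusted p under 0.05, 6.44%), and this was Obp99b. At 18°C its signal was 497, 522 and 761 in light and 280, 426 and 463 in dark, so that there every light column lay above every dark one. Its phase difference at 25°C was 1.91 log2 units lower than at 18°C (-1.91 ± 0.33, SE; limma adjusted p = 0.0286), and edgeR (0.0318) and DESeq2 (8.7e-05) called it too. The call was lost without 25°C ZT3 (adjusted p = 0.190), ZT11 (0.134), ZT19 (0.172) or ZT23 (0.0736), with a pseudocount of 0.1 (0.0738), with robust variance estimates (0.517) and with no low-count filter (0.180). At 18°C the dark columns held 1884754, 784440 and 736538 reads at ZT15, ZT19 and ZT23, and the light columns 1428343, 2408859 and 1920734. The ZT19 and ZT23 columns were thus shallower than every light column, and depth and phase cannot be fully told apart there. The yolk protein sum at 18°C was 222461, 159563 and 226485 in light and 244730.3, 229889 and 202685 in dark. At 29°C that sum was 114856, 106168 and 136609.5 in light and 179926, 164524 and 168445 in dark. Obp99b at 29°C had 613, 369 and 853 in light and 715, 623 and 625 in dark. The part of the yolk protein sum was not tested. Cp110, a centriole gene whose 3′ end lies within l(1)G0196 on the same strand, and CG9119 followed, with limma adjusted p over 0.16 under all alternatives.

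Against 29°C, limma called 0 genes (0%; 551 at an unadjusted p under 0.05, 6.98%), edgeR 0 (572 at that level) and DESeq2 26. The smallest p belonged to COX7AL2, a cytochrome c oxidase gene, SERCA, the calcium pump of the endoplasmic reticulum, and CG17325, with limma adjusted p of 0.0782 or more. COX7AL2 had 437, 775 and 423 in light and 438, 419 and 441 in dark at 25°C, and without ZT7 its phase difference was -0.01. SERCA had 1396, 1170.4 and 1388 in light and 1268, 1293 and 1157 in dark. CG17325 had 337, 490 and 405 in light and 341, 152 and 215 in dark, and its 3′ end lies within CG42305 on the same strand. At 29°C the light columns were shallower than the dark ones, at 978888 to 1245792 against 2341140 to 2750250 reads, and the ZT19 column there held 2847 in midgut and 205 in testis markers, so depth and phase cannot be told apart at that temperature. Without the 29°C ZT19 column limma again called 0 genes, with 433 at an unadjusted p under 0.05.

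Some of these genes had the same direction at all temperatures. CG14186 differed by 0.55, 1.36 and 1.47 log2 units at 18, 25 and 29°C and Sidpn by 1.42, 1.15 and 0.56. CG2124 (-0.32, -1.98 and -1.29), CG17108 (-0.38, -0.71 and -0.86) and Cyp4d21 (-0.91, -1.10 and -1.06) were lower in light at each. Rph (-0.25, 1.67 and -0.47) and flap (0.24, 0.70 and -0.49) were not. More widely, 361 genes had columns that did not overlap at 25°C, an unadjusted p under 0.05 and a mean of 10 reads or more. Their difference had the same sign at 18°C in 56.2%, against 50.5% of all genes, and at 29°C in 65.1%, against 55.4%, or 65.7% and 54.9% without the 29°C ZT19 column. The shares for all genes had no limit of 10 reads and included the 361 genes, and the part of read number was not tested. The proteasome median was 0.20, 0.23 and -0.07 at 18, 25 and 29°C, that of the activity-regulated list 0.58, 0.37 and 0.05, and that of the fat body markers 0.16, -0.54 and -0.24. Differences between temperatures were not tested for lists, and read depth differed between phases at 18°C and 29°C.

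**Figure D5:**
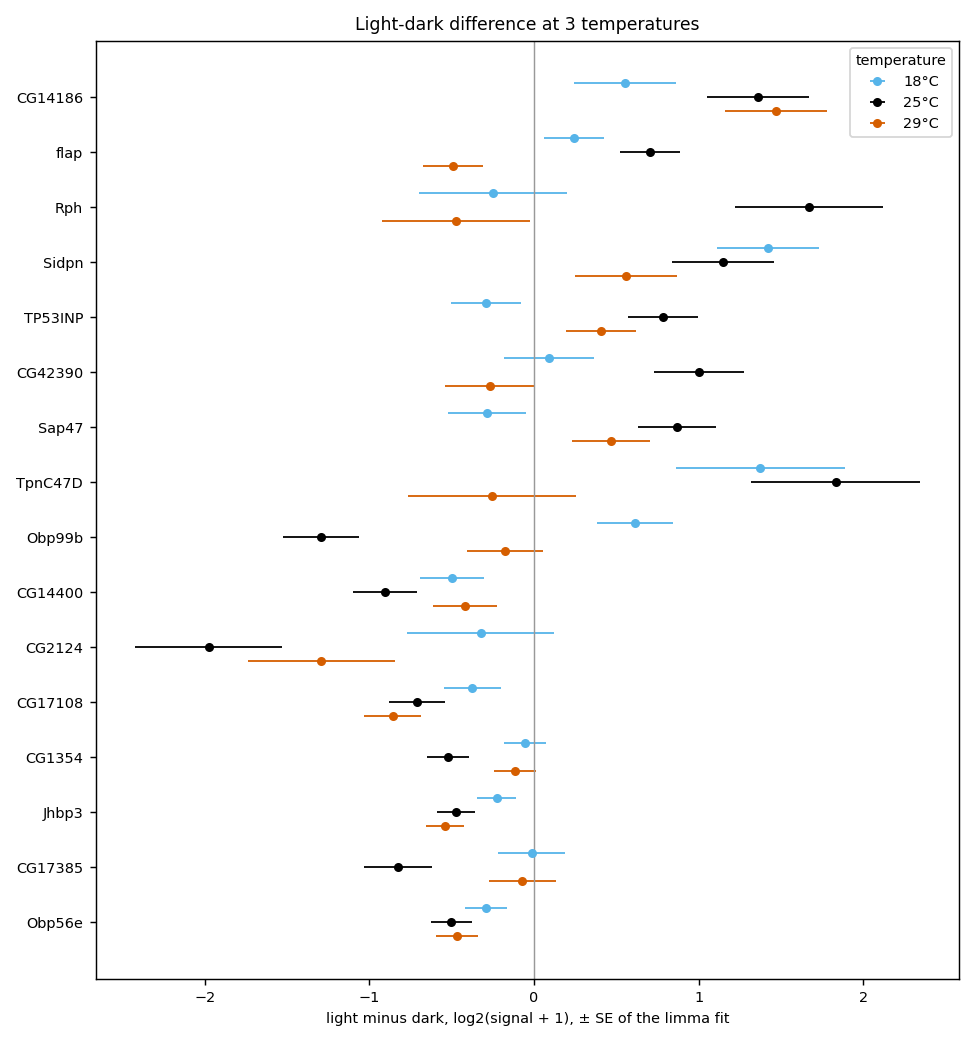
Log2 difference between light and dark (points) with its SE from the limma fit (bars) at 18, 25 and 29°C for the 16 named genes. Obp99b stands at 0.61, -1.30 and -0.18, and CG14186 at 0.55, 1.36 and 1.47.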

How the data were processed

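Fly head RNA was sampled at 6 time points and 3 temperatures by 3′ RNA-seq. The submitters' processing notes name the dm3 build, Bowtie2, TopHat and Cufflinks without roles. How reads were counted (tool, strand, molecular identifiers) and how 1 column arose from 2 libraries is not given in the sources used here. The authors deposited a table of 21081 transcripts and 18 columns of scaled read signal. All values (100%) were whole multiples of a column's step, within 0.0001 reads, and division by it gave reads. For each of 14010 genes the transcript with most reads was kept; 13636 genes had a symbol in RefSeq (Release 6, names only). The values of 96 genes (100 reads or more) equal those of another gene in every column and are uncertain. Coordinates are the table's, counted from 1.

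The low-count filter (filterByExpr, edgeR 4.0.16) left 7892 genes. The main fit used limma 3.58.1 (R 4.3.3; lmFit and trended eBayes) on log2(signal + 1), with a pseudocount of 1 and 1 mean for each temperature and phase over 18 columns. Adjusted p-values are Benjamini-Hochberg values over all genes tested (two-sided, threshold 0.05). This fit, edgeR's quasi-likelihood test and DESeq2 1.42.0, both on the recovered reads, were also run on simulated reads with planted changes. The simulated reads had no change over the day within a phase and no gut or flight muscle reads added at ZT7. They therefore do not show how the tests perform on the real columns. Python 3.11.15 made tables and figures. The members, gene lists and marker lists were chosen with earlier results of these data known. Genes were named by a rule: the 9 core clock genes, in each direction the 8 of smallest p with a mean of at least 10 reads and columns that did not overlap, up to 3 per list by p and 3 per comparison of temperatures, though not every one of these is described. Acp65Aa, Yp1, Yp3 and genes given as calls of an alternative were added after their values were seen. Overlapping genes were taken from the BDGP6 annotation, by name only. Alternatives covered scaling, filters, pseudocounts, the columns and covariates in the fit, the tool and each column left out.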

Additional observations from a re-analysis of the deposited data

Results flagged for a closer look

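Of 10 quantities examined over the 6 columns at 25°C (8 marker sums, reads and genes detected), 4 had a column whose gap to its neighbour exceeded the 95% limit of Dixon's test. Chance gives about 1 in 20 where nothing is known beforehand. The gut and flight muscle reads of ZT7 were known, and the marker lists were chosen with earlier results known. The 4 therefore cannot be set against that rate. The midgut marker sum was 9006.48 at ZT7, against 261 in the next column, and the flight muscle sum was 13261 at ZT7, against 8830. The fat body sum was 274842 at ZT19, against 160398, and the neuron sum was 513.595 at ZT3, against 386. Separately, the phase difference of Obp99b differed between temperatures by the limma test of the difference itself: that at 25°C minus that at 18°C was -1.91 on the log2 scale. What lies behind these values was not tested.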

How the results depend on the processing

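With 1 column per time point, precision is limited by 3 time points per phase. The count of genes called between light and dark, 0, became 1 with TMM scaling, no low-count filter (ng3), a pseudocount of 5 or a threshold of 0.10, 2 with 25°C columns alone (dyw, Obp99b) or with time point within phase as a term (CG34134, Obp99b), 7 with DESeq2, and 0 to 1 when each column was left out. Without ZT7 the count of 1 became 0 with edgeR, with total read scaling or without 29°C ZT19, 9 with time point, 14 with 25°C columns alone and 17 with DESeq2, alternatives chosen after seeing the data. Against 18°C the count of 1 became 2 with time point, 0 with a pseudocount of 0.1 or robust variance, and 0 to 1 when each column was left out; without a filter it was 1 other gene. Against 29°C the count of 0 became 3 with time point, 2 with robust variance or every distinct read profile, 26 with DESeq2, and 0 to 2 when each column was left out.

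Of 1643 values of named genes under alternatives, 23 in 8 genes changed sign. vri became 0.10 with total reads, 0.00827 with TMM, 0.0069 with a pseudocount of 5, 0.16 with edgeR and 0.18 with DESeq2, and cwo became 0.022 with total reads. When each column was left out, vri lay between -0.69 and 0.81, per between -0.15 and 1.35, cwo between -0.19 and 0.033, Clk between -0.48 and 0.50, cyc between -0.30 and 0.34, jet between -0.44 and 0.027, Mal-A1 between -0.90 and 1.96 and COX7AL2 between -0.00826 and 0.43. Without both 25°C ZT7 and 29°C ZT19, cyc was -0.083, Mal-A1 -0.90 and COX7AL2 -0.00826. The causes were not tested. Of 540 list medians under alternatives, 9 moved by more than the spread between columns. No paired analysis was possible because the columns carry no replicate numbers. Promoter motifs were not run, since no promoter sequences were at hand.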
